A study of Schizosaccharomyces pombe with 31 samples.

Results

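The 8 genes described here encode the parts of the Atg8 and Atg12 conjugation systems of fission yeast (*Schizosaccharomyces pombe*). They were taken by row identifier, are present in both deposited tables, and are 8 of the 7001 genes listed in each. Of these, 3 act only in the Atg8 system (*atg8*, SPBP8B7.24c; *atg4*, SPAC19B12.08; *atg3*, SPBC3B9.06c), 4 only in the Atg12 system (*atg12*, SPAC1783.06c; *atg10*, SPAC227.04; *atg5*, SPBC4B4.10c; *atg16*, SPBC405.05) and 1 in both (*atg7*, SPBC6B1.05c). All 8 passed the filter on low values in both tables.

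Autophagy encloses cytoplasm in a double membrane, the autophagosome, and carries it to the vacuole for breakdown, which lets starved cells recycle nitrogen. Atg8 and Atg12 are small ubiquitin-like proteins that are activated by the same E1-like enzyme, Atg7. The E2-like enzyme Atg3 then joins Atg8 to the lipid phosphatidylethanolamine, after the protease Atg4 has trimmed it, and the E2-like enzyme Atg10 joins Atg12 to Atg5. In budding yeast the Atg12-Atg5 conjugate binds Atg16 and promotes the lipidation of Atg8.

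The libraries came from RNA sequencing of h- strains grown at 25 °C. In a time course, cells of *igo1*∆ (igo1::kanMX6), of *ppk18*∆ *cek1*∆ (ppk18::KanMX6 cek1::natMX6) and of the wild type 972 were sampled in minimal medium (MM) and after 1 h and 4 h in that medium without nitrogen (MM-N), with 3 libraries labelled as biological replicates in each of the 9 groups. In a second experiment, cells that expressed a GFP fusion of *ppk18* from the thiamine-repressible *nmt1* promoter (P3-nmt1-GFP-ppk18) and wild type 972 cells were sampled after 20 h in MM without thiamine, with 2 libraries each. Ppk18 and Cek1 are Greatwall protein kinases, and Igo1 (Endosulfine) is the protein they phosphorylate, which in that form inhibits the phosphatase PP2A/B55. The 2 experiments differed in RNA extraction and were normalized separately, so no level was compared between them.

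The libraries held from 14921656 to 22464897 recovered reads in the time course and from 14612909 to 18846318 in the overexpression experiment. The transcript of *ppk18* averaged 359073 ± 21109 normalized counts in the overexpression strain and 4968 ± 1.70 in its wild type (SD, n = 2 each). In *ppk18*∆ *cek1*∆, *ppk18* lay between 142 and 246 and *cek1* between 23.9 and 165, against 3776 to 5746 and 2884 to 3811 in the wild type of the time course. In *igo1*∆, *igo1* was lower at each time but not lost, with 1507 to 2577 against 2598 to 3317 in wild type. Of the 1181 bases of its annotated exons, 761 are noncoding, and the counts do not show which part was deleted. With the authors' size factors the median change of all genes was 0.01 to 0.04 (log2) between MM-N and MM, and giving each library the same total moved it to 0.29 to 0.47 there and to -0.16 to -0.15 between deletion strains and wild type at 4 h. With that scaling, higher genes were 64.3% to 74.2% of the genes called between MM-N and MM, against 50.3% to 51.8% with the authors' size factors, and 35.4% to 37.8% of those called between deletion strains and wild type at 4 h, against 51.6% to 51.9%. For the interactions described below the shares were 34.3% to 46.9% with the same total, against 52.2% to 53.9%, and for the deletion strains against wild type at 1 h 41.3% to 46.4%, against 51.5% to 52.2%.

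A normalized count is a count of reads divided by the size factor of its library, and changes are given as log2 fold changes of the normalized count + 1, which slightly understates changes of low genes. A change was called at an adjusted p under 0.05 from limma with Benjamini-Hochberg adjustment over all genes tested (6036 in the time course and 5863 in the overexpression experiment), and every adjusted p below comes from these fits. The precision differed between members: *atg12* rested on 55 to 265 reads per library in the time course and had a standard error of 0.14, whereas *atg8* rested on 386 to 2677 reads and had a standard error of 0.054. Whole cultures were measured, so fewer cells with a transcript and less of it in each cell cannot be told apart.

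In wild type cells growing in MM, the modifier of one system was the highest member and that of the other the lowest. Per kb of annotated exon, *atg8* had 734 ± 20.2 normalized counts and *atg12* had 143 ± 24.8 (SD, n = 3 each). Between them, the order per kb was *atg3* (490 ± 44.8), *atg5* (467 ± 11.3), *atg7* (401 ± 15.4), *atg10* (237 ± 8.28), *atg16* (202 ± 6.80) and *atg4* (163 ± 10.7). Only the ranges of *atg3* and *atg5*, and those of *atg4* and *atg12*, overlapped among neighbours in this order. The order depends on the annotated exon lengths, which include noncoding bases. In *atg16*, 432 of 1105 exon bases are coding, against 1950 of 2126 in *atg7*. After 4 h in MM-N, *atg8* was still the highest at 2549 ± 10.7 per kb and *atg12* the lowest at 318 ± 4.31, while *atg7* (1083 ± 33.1) and *atg4* (916 ± 33.0) then stood above *atg5* (843 ± 17.4) and *atg3* (726 ± 17.0). At that time *atg16* (359 ± 12.7) and *atg10* (352 ± 15.1) were the only neighbours whose ranges overlapped.

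How these transcripts differ in nitrogen-rich medium when *ppk18* is overexpressed was read from the overexpression experiment. The libraries show the raised transcript of *ppk18* but not the activity of the kinase. Whether the differences are a direct effect of Greatwall or follow from an altered state of the cells after 20 h was not tested. The genes for the E1-like enzyme, the protease and Atg8 rose in the overexpression strain. Neither *atg3*, which acts only in the Atg8 system, nor any of the 4 Atg12-only genes passed the test. In all, 3 of the 8 members were called higher and 0 lower. Of all genes tested, 29.6% were called higher, so the share of members was near that of all genes. *atg4* had 587 and 617 normalized counts in the overexpression strain, against 289 and 282 in wild type. *atg7* had 1022 and 992 in the overexpression strain, against 489 and 505 in wild type. *atg8* had 827 and 898 in the overexpression strain, against 514 and 551 in wild type. The libraries of the strains were well apart for these 3 genes, and the changes were 2.1-fold for *atg4* (log2 1.07, 95% interval 0.87 to 1.28, adjusted p = 9.01e-06), 2.02-fold for *atg7* (log2 1.02, 0.85 to 1.19, adjusted p = 3.62e-06) and 1.62-fold for *atg8* (log2 0.69, 0.51 to 0.88, adjusted p = 8.05e-05).

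The other 5 members had estimates between 0.15 and 0.22 (log2) and did not pass. *atg3*, which encodes the E2-like enzyme for Atg8, had 332 and 320 in the overexpression strain, against 268 and 294 in wild type, a difference of 0.22 (95% interval -0.02 to 0.45, adjusted p = 0.109). *atg10*, its counterpart for Atg12, had 258 and 229 in the overexpression strain, against 219 and 216 in wild type, a difference of 0.16 (interval -0.10 to 0.43, adjusted p = 0.269). *atg5* differed by 0.21 (interval 0.01 to 0.42, adjusted p = 0.068) and *atg16* by 0.22 (interval -0.11 to 0.56, adjusted p = 0.226). For *atg12*, 73.7 and 86.0 in the overexpression strain lay inside the wild type pair of 56.0 and 90.9, and the interval of -0.39 to 0.70 was the widest of the 8. Of 20 other autophagy genes, a list the study chose on these samples, 18 were called higher, with a median of 0.75 over the 20, against 0.22 over the 8 conjugation genes and 0.00 over all genes tested.

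**Figure D1:**
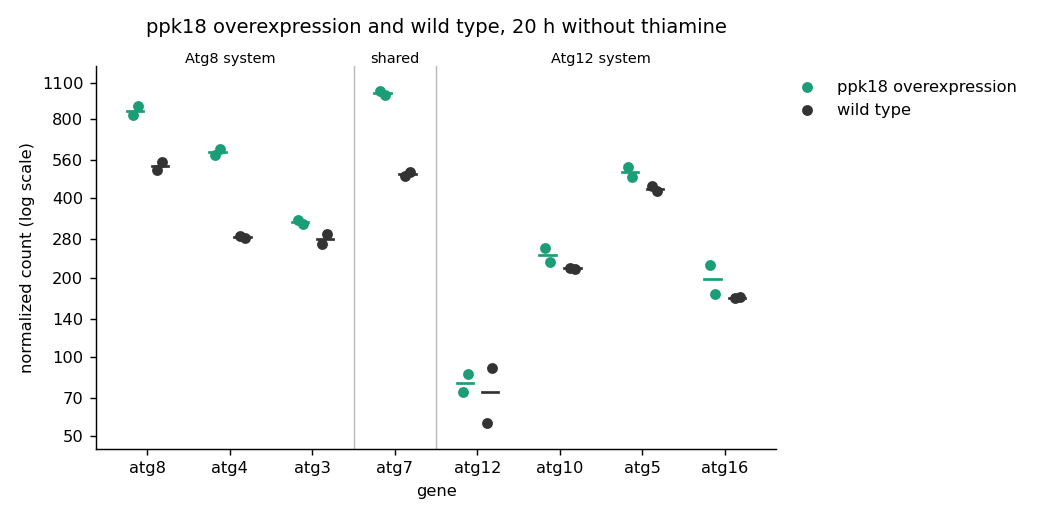
Normalized counts (vertical axis, log scale) of the 8 genes (horizontal axis) in each library of the *ppk18* overexpression strain (green) and the wild type (dark grey) after 20 h without thiamine. Points are libraries and bars their means (n = 2 each), and the strains stand well apart for *atg8*, *atg4* and *atg7*, with log2 changes of 0.69, 1.07 and 1.02.

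The response of wild type cells to nitrogen starvation was read from the time course. All 8 transcripts were higher at 4 h than in MM (39.9% of all genes were), and 7 were already higher at 1 h (40.3%), the exception being *atg10*. The protease gene *atg4* had 280, 290 and 317 normalized counts in MM, 1121, 1173 and 1342 at 1 h, and 1623, 1624 and 1727 at 4 h. *atg8* had 601, 620 and 635 in MM, 1845, 2011 and 2064 at 1 h, and 2139, 2151 and 2157 at 4 h. No starved library of either gene came near the level in MM, and the changes at 4 h were 5.59-fold for *atg4* (log2 2.48 ± 0.08 SE, adjusted p = 4.54e-18) and 3.47-fold for *atg8* (log2 1.80 ± 0.05 SE, adjusted p = 4.87e-19). *atg7* was 1.94-fold higher at 1 h and 2.70-fold higher at 4 h than in MM (log2 0.96 and 1.43). *atg3* had 518, 562 and 621 in MM, 964, 968 and 984 at 1 h, and 820, 841 and 859 at 4 h. It was 1.72-fold higher at 1 h but 1.49-fold higher at 4 h than in MM (log2 0.78 and 0.57), the least of the Atg8-only genes at both times.

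The Atg12-only genes had smaller changes in wild type than *atg4*, *atg8* and *atg7*, though at 4 h those of *atg12*, *atg5* and *atg16* were larger than that of *atg3*. *atg12* had 86.7, 87.1 and 116 in MM, 147, 159 and 170 at 1 h, and 213, 214 and 218 at 4 h, and its change at 4 h was 2.24-fold (log2 1.16 ± 0.14 SE, adjusted p = 5.33e-08). *atg5*, whose product receives Atg12, and *atg16*, whose product binds the conjugate, were 1.80-fold and 1.77-fold higher at 4 h than in MM (log2 0.85 and 0.83). *atg10* had 215, 218 and 230 in MM, 203, 232 and 238 at 1 h, and 319, 321 and 344 at 4 h. Its libraries in MM and at 1 h overlapped (log2 0.02, 95% interval -0.18 to 0.22, adjusted p = 0.858), and those at 4 h were all higher (1.48-fold, log2 0.57, adjusted p = 1.08e-05). With the same total in every library *atg10* was called higher at 1 h too, with a log2 change of 0.45, which was -0.02 relative to the median of all genes.

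The second stage of the wild type response, from 1 h to 4 h, separated the members. At 4 h, 5 of the 8 were higher than at 1 h (27.1% of all genes were) and 1 was lower (30.7%). The 1 that fell was *atg3*, with 820, 841 and 859 at 4 h, against 964, 968 and 984 at 1 h (log2 -0.21, adjusted p = 0.0043). The largest gain in this interval was that of *atg10* (log2 0.55, adjusted p = 3.91e-05), followed by *atg7* (0.47), *atg4* (0.46) and *atg12* (0.44). *atg8* and *atg5* did not pass (0.12 and 0.12, adjusted p = 0.055 and 0.056) but did so at 0.16 without wild type library 2 or 1 at 1 h. With the replicate block *atg5* was called as well, at 0.12. The call of *atg16* (0.24, adjusted p = 0.029) was lost at 0.19 to 0.25 without wild type library 3 at 1 h or library 2 or 3 at 4 h, and at 0.14 with quantile normalization. The median over the 3 Atg8-only genes was 1.67 at 1 h and 1.80 at 4 h relative to MM, against 0.65 and 0.84 over the 4 Atg12-only genes, 1.27 and 1.45 over the 20 other autophagy genes, and 0.04 and 0.01 over all genes. The list of 20 was chosen by the study on these samples.

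**Figure D2:**
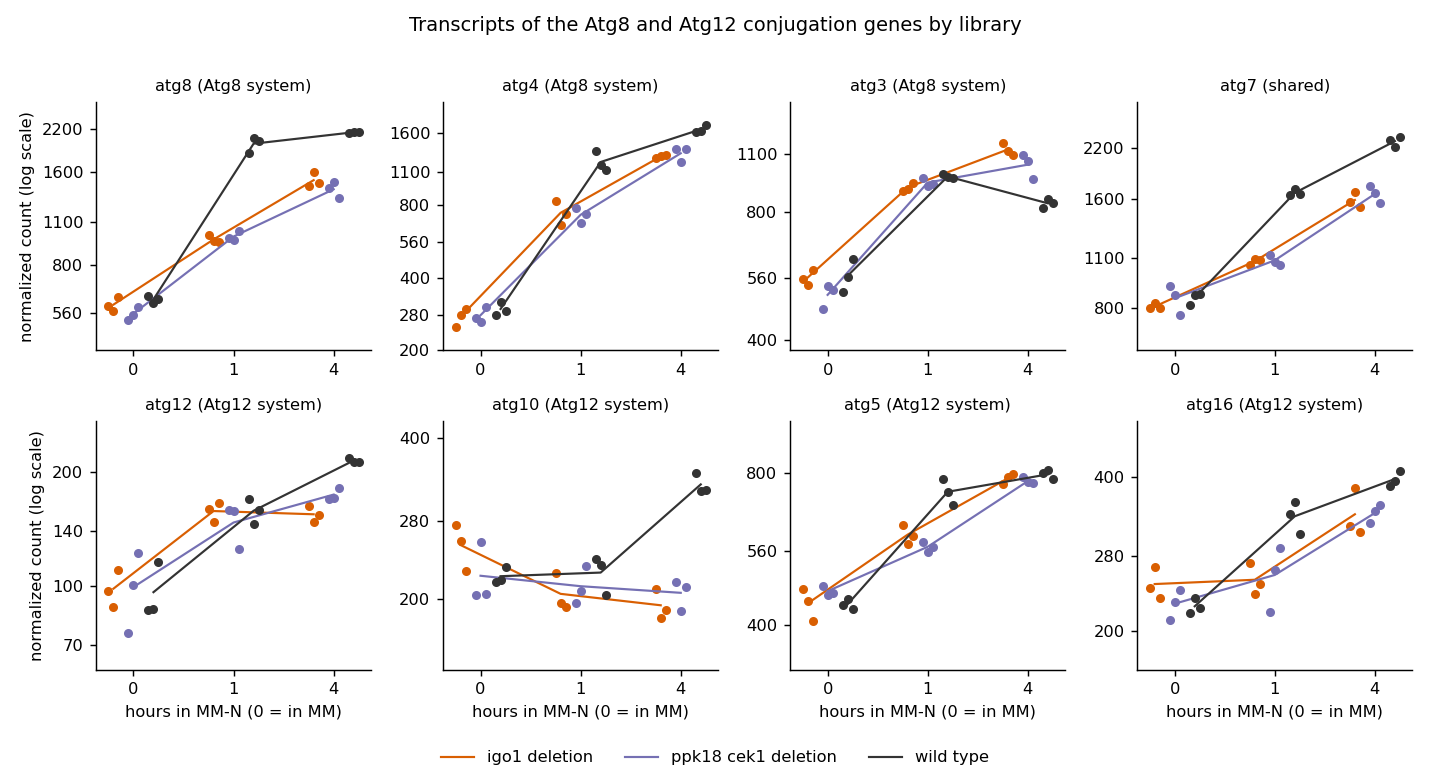
Normalized counts (vertical axes, log scale, a separate range for each gene) against hours in MM-N (horizontal axes, evenly spaced, with 0 for MM) for *igo1*∆ (orange), *ppk18*∆ *cek1*∆ (purple) and wild type (dark grey). Points are libraries (n = 3 in each group) and lines join group means. For *atg8* the wild type stands apart from both deletion strains at 1 h and at 4 h, for *atg3* it is below them at 4 h, and for *atg10* it is above them at 4 h.

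The deletion strains were compared with the wild type to see which of these changes differ without Endosulfine or the Greatwall kinases Ppk18 and Cek1. The study also lists Ppk31 among the Greatwall orthologues, and neither strain is labelled with its deletion. In MM, 0 of the 8 members were called between *igo1*∆ and wild type, where 2.15% of all genes were called in either direction, and 0 of 8 between *ppk18*∆ *cek1*∆ and wild type, where 1.67% were. At an unadjusted p under 0.05, the counts were 0 of 8 for *igo1*∆, where 745 of 6036 genes passed. They were 2 of 8 (*atg8* and *atg3*) for *ppk18*∆ *cek1*∆, where 754 did. On the recovered reads edgeR also called 0 members, where 42 genes were higher and 39 lower in *igo1*∆, and 40 and 42 in *ppk18*∆ *cek1*∆. DESeq2 called 0 members too, where 59 genes were higher and 64 lower in *igo1*∆, and 55 and 55 in *ppk18*∆ *cek1*∆. The estimates in MM lay between -0.16 and 0.19 (log2).

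After 1 h in MM-N, 5 of the 8 members were lower in *igo1*∆ than in wild type (29.9% of all genes were) and the same 5 were lower in *ppk18*∆ *cek1*∆ (28.7%), with 0 called higher in either. These comparisons use the same wild type libraries. The 5 were *atg8*, *atg4*, *atg7*, *atg5* and *atg16*. After 4 h, 6 were lower in *igo1*∆ (36.4%) and 1 was higher (38.8%), and 5 were lower in *ppk18*∆ *cek1*∆ (34.8%) and 1 was higher (37.6%). The shares of lower members were above those of all genes, and the median over the 8 members was -0.35 for *igo1*∆ and -0.37 for *ppk18*∆ *cek1*∆ at 1 h, against 0.03 and 0.02 over all genes, and -0.42 and -0.32 at 4 h, against 0.02 and 0.03. The 20 other autophagy genes, a list the study chose on these samples, had medians of -0.50 and -0.51 at 1 h and of -0.42 and -0.38 at 4 h.

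Within the deletion strains, starvation still raised most members. In *igo1*∆, 6 of 8 were higher at 1 h than in MM (39.7% of all genes were) and 1 lower (38.1%), and 7 were higher at 4 h than in MM (42.1%) and 1 lower (41.2%). In *ppk18*∆ *cek1*∆, 6 of 8 were higher at 1 h than in MM (39.2%) and 7 at 4 h (41.9%), with 0 lower. From 1 h to 4 h, 6 of 8 rose in *igo1*∆ (33.8% of all genes did) and 6 in *ppk18*∆ *cek1*∆ (34%). Of the rise of *atg8* reached at 4 h on the log2 scale, 52.4% was present at 1 h in *igo1*∆ and 62.1% in *ppk18*∆ *cek1*∆, against 93.1% in wild type. For *atg7* the shares were 42.6% and 36.6%, against 67.0% in wild type, for *atg4* 64.6% and 62.0%, against 81.7%, and for *atg5* 55.1% and 40.3%, against 86.4%. For *atg12* they were 104% in *igo1*∆ and 69.8% in *ppk18*∆ *cek1*∆, against 62.0% in wild type. The changes of *atg12* behind these shares had a standard error of 0.14 each, and the shares were not tested. Its change from MM to 1 h was not called different from that in wild type in either deletion strain. *atg3* had 70.5% and 86.5%, against 137% in wild type, where it was lower at 4 h than at 1 h, and *atg16* had 30.3% in *ppk18*∆ *cek1*∆, against 70.5%.

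Among the modifiers, *atg8* had the largest difference at 1 h of the 8 members. It had 948, 952 and 999 normalized counts in *igo1*∆ and 962, 974 and 1027 in *ppk18*∆ *cek1*∆, against 1845, 2011 and 2064 in wild type at 1 h. The deletion libraries were all near 1 level and all below the wild type ones, at 0.490 times the wild type in *igo1*∆ (log2 -1.03, 95% interval -1.14 to -0.92, adjusted p = 2.32e-13) and 0.501 times in *ppk18*∆ *cek1*∆ (log2 -0.997, -1.11 to -0.88, adjusted p = 6.00e-13). At 4 h, *atg8* had 1437, 1476 and 1598 in *igo1*∆ and 1313, 1421 and 1480 in *ppk18*∆ *cek1*∆, against 2139, 2151 and 2157 in wild type. The groups still did not overlap, and the differences were -0.52 and -0.61 (adjusted p = 1.21e-08 and 7.83e-10). The gene *rnf10*, which overlaps 15.7% of the exons of *atg8* on the opposite strand, was also lower at 1 h (-0.51 and -0.55) but higher at 4 h (0.20 and 0.14), and its part in the counts of *atg8* was not tested.

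*atg12* differed later. At 1 h it had 148, 161 and 166 in *igo1*∆ and 126, 158 and 159 in *ppk18*∆ *cek1*∆, against 147, 159 and 170 in wild type, and the 3 groups overlapped. The differences were 0.00 (95% interval -0.29 to 0.28) and -0.11 (interval -0.39 to 0.18), so a difference of the size seen in *atg8* lay outside both intervals. At 4 h it had 148, 154 and 163 in *igo1*∆ and 170, 172 and 182 in *ppk18*∆ *cek1*∆, against 213, 214 and 218 in wild type. All deletion libraries were lower, and the difference passed in *igo1*∆ (log2 -0.47, adjusted p = 0.0038) but not in *ppk18*∆ *cek1*∆ (-0.30, adjusted p = 0.056), where it passed with edgeR (-0.36) and DESeq2 (-0.30) on the recovered reads and with the same total in every library (-0.49). The median of all genes was -0.16 in *ppk18*∆ *cek1*∆ under that last scaling. With quantile normalization the rise of *atg12* relative to MM was no longer called in *igo1*∆ at 1 h and 4 h (0.24 and 0.18) or in *ppk18*∆ *cek1*∆ at 1 h (0.19).

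Reads of *atg12* share their place with 2 genes on the opposite strand, the noncoding SPNCRNA.804, over 77.8% of its exon length, and *hrp1*, over 21.5%. SPNCRNA.804 averaged 34.0 to 54.7 normalized counts over the groups of the time course and differed by 0.37 and -0.26 between *igo1*∆ and wild type at 1 h and 4 h, which did not pass. Within *igo1*∆ it was higher at 1 h than in MM (0.52) and lower at 4 h than at 1 h (-0.69), and its change from MM to 1 h was higher in *igo1*∆ than in wild type (0.80), all of which passed. *hrp1* averaged 2500 to 5540 and was lower at 4 h in *igo1*∆ (-0.38) and in *ppk18*∆ *cek1*∆ (-0.30), and lower in starved than in growing wild type cells (-0.85 at 1 h), where *atg12* was higher. The libraries were made with stranded kits, the strand setting of the counting is not given in the sources used here, and the part of these genes in the counts of *atg12* was not tested. Noncoding genes annotated opposite to other members, such as 1 over 95.8% of the exons of *atg10* and 1 over 68.9% of those of *atg8*, were not analysed here.

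The protease gene *atg4* and the shared E1-like gene *atg7* were lower at both times. *atg4* had 665, 734 and 834 in *igo1*∆ and 677, 735 and 779 in *ppk18*∆ *cek1*∆, against 1121, 1173 and 1342 in wild type at 1 h, with differences of -0.70 and -0.73 (adjusted p = 1.80e-07 and 1.27e-07). At 4 h the differences of *atg4* were -0.37 and -0.33 (adjusted p = 3.84e-04 and 0.0013). *atg7* had 1052, 1085 and 1091 in *igo1*∆ and 1052, 1073 and 1122 in *ppk18*∆ *cek1*∆, against 1632, 1642 and 1703 in wild type at 1 h. Neither gene had a deletion library inside the wild type range at 1 h or 4 h, and *atg7* differed by -0.62 in each strain at 1 h and by -0.54 and -0.48 at 4 h. The gene *mde4* lies on the opposite strand over 73.9% of the exon length of *atg7*. It averaged 232 to 407 normalized counts over the groups and moved the other way, with -0.75 from MM to 4 h in wild type and 0.34 and 0.30 in the deletion strains relative to wild type at 1 h, and its part in the counts of *atg7* was not tested.

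The genes for the E2-like enzymes parted at 4 h, and they did so in opposite directions. *atg3* had 1092, 1119 and 1167 in *igo1*∆ and 958, 1060 and 1092 in *ppk18*∆ *cek1*∆, against 820, 841 and 859 in wild type at 4 h. It was the only member that was higher in the deletion strains, by 0.42 in *igo1*∆ (95% interval 0.30 to 0.54, adjusted p = 1.08e-06) and by 0.30 in *ppk18*∆ *cek1*∆ (0.18 to 0.42, adjusted p = 9.73e-05), and the difference in *ppk18*∆ *cek1*∆ was 0.11 and not called with the same total in every library. The median of all genes was -0.16 in *ppk18*∆ *cek1*∆ under that scaling. At 1 h *atg3* did not pass, with -0.09 (interval -0.21 to 0.04) and -0.05 (interval -0.17 to 0.08), although edgeR called it in *igo1*∆ (-0.13). The rise of *atg3* from 1 h to 4 h in *ppk18*∆ *cek1*∆ (0.14, adjusted p = 0.043) was lost without library 2 or 3 at 1 h or library 1 or 2 at 4 h of that strain, at 0.10 to 0.13. The gene *hot15*, which overlaps 5.62% of the exons of *atg3* on the opposite strand, was also higher in both deletion strains at 4 h (0.79 and 0.64), and its part in the counts of *atg3* was not tested.

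*atg10* had 185, 191 and 209 in *igo1*∆ and 190, 211 and 216 in *ppk18*∆ *cek1*∆, against 319, 321 and 344 in wild type at 4 h. It was the lowest of the 8 relative to wild type at that time, at 0.596 times the wild type in *igo1*∆ (log2 -0.75, 95% interval -0.95 to -0.55, adjusted p = 2.60e-07) and 0.628 times in *ppk18*∆ *cek1*∆ (-0.67, -0.87 to -0.47, adjusted p = 1.45e-06). It was the only member not called higher at 4 h than in MM in the deletion strains: it was lower than in MM in *igo1*∆ (-0.37, adjusted p = 0.0012) and did not pass in *ppk18*∆ *cek1*∆ (-0.10, interval -0.30 to 0.10). At 1 h, *igo1*∆ was also lower than in MM (-0.30, adjusted p = 0.0069). These changes depended on the scaling: with the same total in every library the change in *igo1*∆ was 0.09 at 1 h and -0.07 at 4 h, neither of them called, and that in *ppk18*∆ *cek1*∆ at 1 h, -0.06 before, was 0.29 and called. Relative to the median of all genes under that scaling, they were -0.32, -0.38 and -0.08. With quantile normalization the fall in *ppk18*∆ *cek1*∆ at 4 h was called (-0.30). Over the 9 groups, the wild type at 4 h stood above every other group, and the ranges of each pair of neighbours overlapped from there down, between means of 195 and 253. The noncoding gene SPNCRNA.656 overlaps 6.12% of the exons of *atg10* on the same strand and averaged 7.78 to 24.3 normalized counts over the groups. It was higher than in wild type in *igo1*∆ at 1 h and 4 h (1.03 and 1.15) and in *ppk18*∆ *cek1*∆ at 1 h (1.215). At 4 h *ppk18*∆ *cek1*∆ did not pass (0.68). Its part in the counts of *atg10* was not tested.

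The partners *atg5* and *atg16* were lower in the deletion strains at 1 h, and *atg5* did not pass at 4 h. *atg5* had 578, 601 and 632 in *igo1*∆ and 559, 571 and 585 in *ppk18*∆ *cek1*∆, against 691, 733 and 777 in wild type at 1 h (log2 -0.28 and -0.36, adjusted p = 4.85e-05 and 2.16e-06). At 4 h its groups overlapped, with differences of -0.03 (95% interval -0.13 to 0.08) and -0.04 (interval -0.15 to 0.06), although with the same total in every library they were -0.20 and -0.23 and called. The medians of all genes under that scaling were -0.15 and -0.16. The gene *prp39*, which overlaps 7.96% of the exons of *atg5* on the opposite strand, was lower at 4 h in both deletion strains (-0.33 and -0.30), and its part in the counts of *atg5* was not tested. *atg16* had 237, 247 and 272 in *igo1*∆ and 218, 263 and 291 in *ppk18*∆ *cek1*∆, against 310, 339 and 357 in wild type at 1 h (-0.41 and -0.39, adjusted p = 5.26e-04 and 0.0010). Its differences at 4 h were smaller (-0.23 and -0.22, adjusted p = 0.027 and 0.037). These calls at 4 h were lost with quantile normalization (-0.14 and -0.13) and without wild type library 3 (-0.21 and -0.19), and also without *igo1*∆ library 1 or 3 (-0.20 and -0.18), or, for *ppk18*∆ *cek1*∆, without its library 1 or 2 or wild type library 2 (-0.19 to -0.23). In *ppk18*∆ *cek1*∆ the change of *atg16* from MM to 1 h did not pass (0.18) but did so at 0.29 without library 1 of that strain at 1 h.

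**Figure D3:**
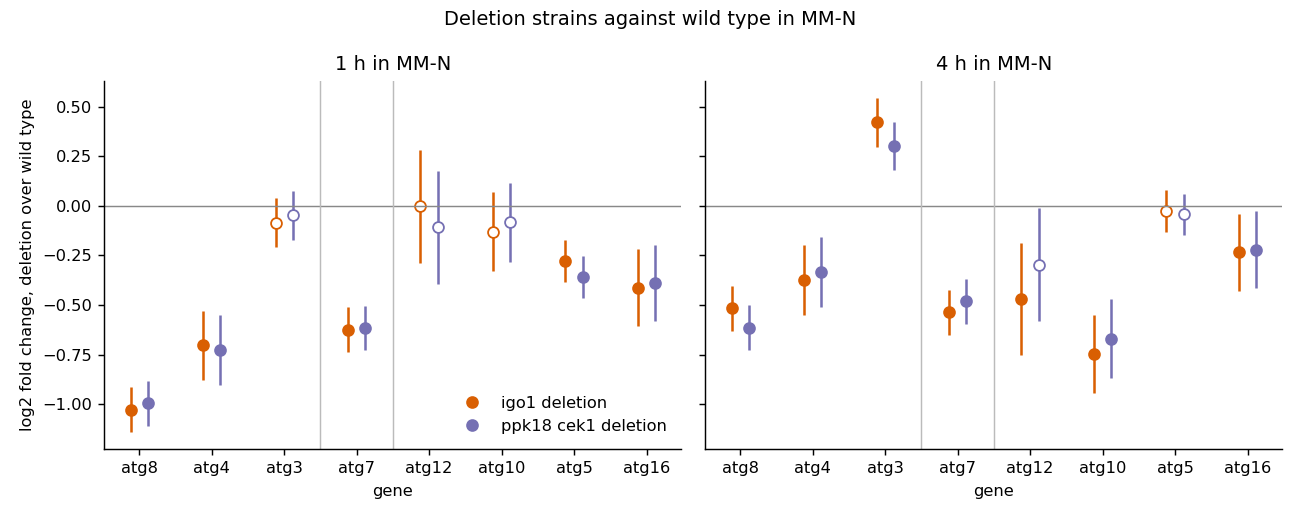
Log2 fold change of *igo1*∆ (orange) and *ppk18*∆ *cek1*∆ (purple) over wild type (vertical axis) for each gene (horizontal axis) after 1 h and 4 h in MM-N. Filled points passed an adjusted p of 0.05, open points did not, and vertical lines are 95% intervals (n = 3 in each group). At 1 h *atg8* is lowest (-1.03 and -0.997), and at 4 h *atg10* is lowest (-0.75 and -0.67) while *atg3* is above 0 (0.42 and 0.30).

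Whether the change from MM to MM-N itself differed between strains was tested as an interaction. From MM to 1 h, the change was lower in *igo1*∆ than in wild type for 5 of 8 members (22.7% of all genes) and in *ppk18*∆ *cek1*∆ for 5 of 8 (21.7%), again *atg8*, *atg4*, *atg7*, *atg5* and *atg16*. From MM to 4 h, it was lower in *igo1*∆ for 5 (30.1%) and higher for 1 (34.2%), and lower in *ppk18*∆ *cek1*∆ for 3 (28.1%) and higher for 1 (32.9%). *atg10* had the lowest interaction at 4 h (-0.94 in *igo1*∆ and -0.67 in *ppk18*∆ *cek1*∆) and *atg3* the only positive ones called (0.43 and 0.45). The call of *atg12* in *igo1*∆ at 4 h (-0.51, adjusted p = 0.026) was lost without wild type library 1 or 2 in MM, *igo1*∆ library 3 in MM or *igo1*∆ library 2 at 4 h (-0.47 to -0.42), and that of *atg16* in *ppk18*∆ *cek1*∆ at 1 h (-0.40) without its library 1 at 1 h (-0.29). With the same total in every library, 8 of 8 members were called in either direction in *ppk18*∆ *cek1*∆ at 4 h, where 62.2% of all genes were, in place of 4 of 8, where 61% were.

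The deletion strains were then set against each other. Between *igo1*∆ and *ppk18*∆ *cek1*∆, 0 of 8 members were called at 1 h (0.265% of all genes were) and 0 of 8 at 4 h (6%). At an unadjusted p under 0.05 the counts were 0 and 0, where 529 of 6036 genes passed at 1 h and 1125 at 4 h. On the recovered reads edgeR also called 0 members, where 13 genes were higher and 15 lower at 1 h, and 325 and 105 at 4 h. DESeq2 called 0 members too, where 27 genes were higher and 28 lower at 1 h, and 336 and 106 at 4 h. The differences lay between -0.05 and 0.11 at 1 h and between -0.17 and 0.12 at 4 h. The intervals were narrowest for *atg5* (-0.03 to 0.18 at 1 h and -0.09 to 0.12 at 4 h) and widest for *atg12* (-0.18 to 0.39 and -0.46 to 0.11), so a difference of 0.46 in *atg12* lies within what this depth allows. At 4 h the libraries of *atg12* in *igo1*∆ lay below those in *ppk18*∆ *cek1*∆ without overlap (-0.17, adjusted p = 0.55).

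The balance between the systems was then read within each library, where the scaling of the library cancels out of a ratio between genes. These ratios and differences are given without a test. In *igo1*∆ the ratio of *atg8* to *atg12* per kb was 4.85 ± 0.296 in MM, 4.91 ± 0.309 at 1 h and 7.80 ± 0.813 at 4 h (SD, n = 3 each). At these times it was 4.61 ± 0.919, 5.45 ± 0.952 and 6.46 ± 0.605 in *ppk18*∆ *cek1*∆, and 5.23 ± 0.832, 10.1 ± 1.29 and 8.01 ± 0.139 in wild type. At 1 h every library of *igo1*∆ (4.57 to 5.17) and of *ppk18*∆ *cek1*∆ (4.89 to 6.55) was below every library of the wild type (8.72 to 11.3). At 4 h *igo1*∆ (7.06 to 8.67) overlapped the wild type (7.85 to 8.10) and *ppk18*∆ *cek1*∆ (5.77 to 6.92) did not.

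The ratio of the E2-like genes, *atg3* to *atg10*, had a different course. In *igo1*∆ it was 1.80 ± 0.250 in MM, 3.62 ± 0.348 at 1 h and 4.66 ± 0.199 at 4 h, and in *ppk18*∆ *cek1*∆ 1.87 ± 0.190, 3.60 ± 0.345 and 4.07 ± 0.422. In wild type it was 2.06 ± 0.121, 3.50 ± 0.272 and 2.07 ± 0.132, so that its level at 4 h was again that in MM. The strains overlapped at 1 h, whereas at 4 h *igo1*∆ (4.49 to 4.88) and *ppk18*∆ *cek1*∆ (3.65 to 4.50) lay above the wild type (1.92 to 2.17). Within the Atg12 system the ratio of *atg5* to *atg16* varied less, with group means between 2.1 and 2.82, and that of *atg5* to *atg12* had group means between 2.65 and 3.62. After overexpression of *ppk18*, the ratio of *atg8* to *atg12* was 8.38 and 9.0, against 4.86 and 7.36 in wild type, and that of *atg3* to *atg10* was 1.04 and 1.12, against 0.985 and 1.10, which overlap.

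**Figure D4:**
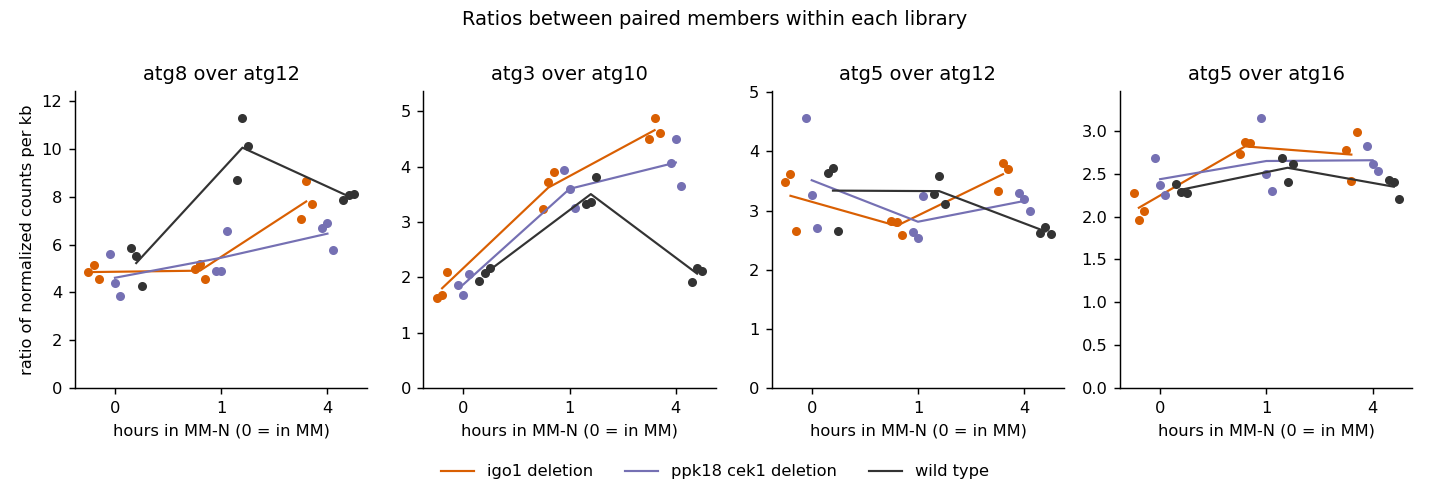
Ratios of normalized counts per kb (vertical axes, from 0) within each library against hours in MM-N (horizontal axes, evenly spaced, with 0 for MM) for *igo1*∆ (orange), *ppk18*∆ *cek1*∆ (purple) and wild type (dark grey). Points are libraries (n = 3 in each group) and lines join means. The ratio of *atg8* to *atg12* is higher in wild type at 1 h (8.72 to 11.3), and that of *atg3* to *atg10* is lower in wild type at 4 h (1.92 to 2.17).

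Averaged over each system on the log2 scale, with *atg7* left out, the mean of the Atg8-only genes gained on that of the Atg12-only genes in every strain. In wild type not every Atg8-only gene shared in this. From MM to 4 h *atg4* and *atg8* rose by 2.48 and 1.80 there, but *atg3* by 0.57, against 0.57 to 1.16 for the Atg12-only genes. In *igo1*∆ and *ppk18*∆ *cek1*∆ *atg3* rose by 1.00 and 1.02, above every Atg12-only gene (at most 0.82 and 0.83). The mean of *atg8*, *atg4* and *atg3* minus the mean of *atg12*, *atg10*, *atg5* and *atg16* was 0.98 ± 0.12 in MM, 1.71 ± 0.02 at 1 h and 2.11 ± 0.03 at 4 h in *igo1*∆ (SD, n = 3 each). It was 0.97 ± 0.07, 1.75 ± 0.08 and 1.99 ± 0.07 in *ppk18*∆ *cek1*∆, and 1.13 ± 0.03, 2.11 ± 0.05 and 1.90 ± 0.03 in wild type. At 1 h both deletion strains lay below the wild type without overlap, by 0.40 in *igo1*∆ and 0.36 in *ppk18*∆ *cek1*∆. At 4 h *igo1*∆ lay above the wild type by 0.21 without overlap, and *ppk18*∆ *cek1*∆, at 0.09 above it, overlapped. Both system means were lower in *igo1*∆ than in wild type at 4 h. They were 10.34 against 10.49 for the Atg8-only genes and 8.23 against 8.60 for the Atg12-only genes. Of the Atg8-only genes, *atg8* and *atg4* were lower there (-0.52 and -0.37) and only *atg3* was higher (0.42). The Atg12-only genes ran from -0.75 (*atg10*) to -0.03 (*atg5*). After *ppk18* overexpression the difference between the systems was 1.39 ± 0.11, against 0.92 ± 0.06 in wild type (SD, n = 2 each), without overlap.

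**Figure D5:**
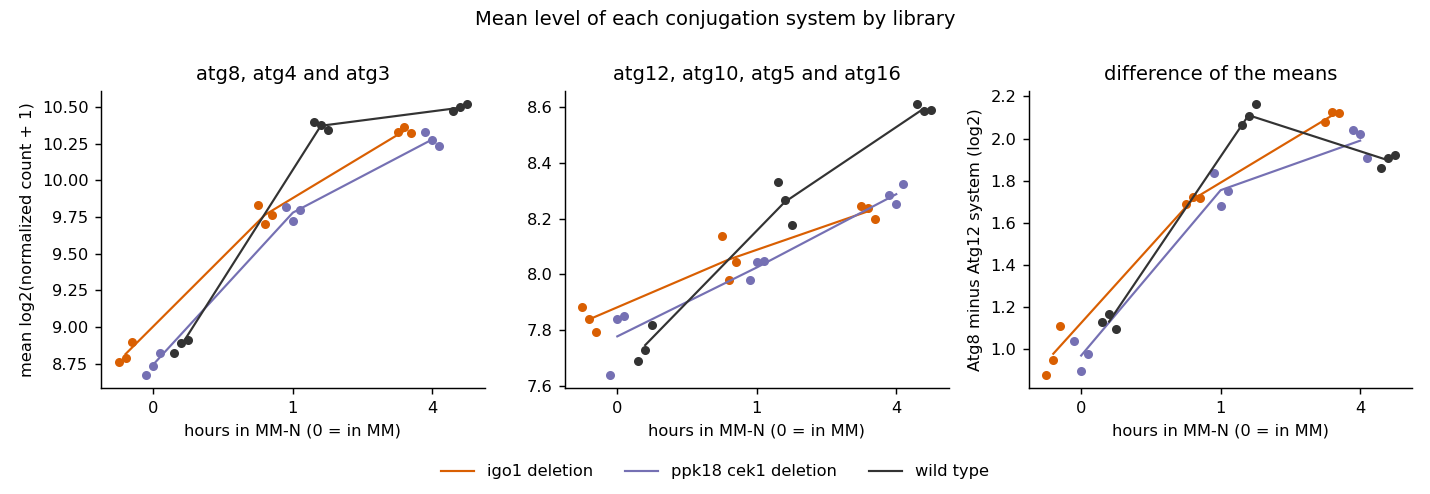
Mean log2(normalized count + 1) of the Atg8-only genes (left), of the Atg12-only genes (middle) and their difference (right) in each library against hours in MM-N (horizontal axes, evenly spaced, with 0 for MM), for *igo1*∆ (orange), *ppk18*∆ *cek1*∆ (purple) and wild type (dark grey). Points are libraries (n = 3 in each group) and lines join means. The difference is 1.71 at 1 h and 2.11 at 4 h in *igo1*∆, against 2.11 and 1.90 in wild type.

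Over the means of the 9 groups, 7 of the members followed each other and *atg10* did not. Among the 7, Pearson's r of log2(normalized count + 1) lay between 0.71 (*atg3* and *atg16*) and 0.99 (*atg4* and *atg5*), whereas r between *atg10* and the others lay between -0.27 (*atg3*) and 0.36 (*atg16*). The points are 9 group means that share strains and times, so r is a description. Among 5450 genes that averaged 50 or more normalized counts, those closest to *atg8* were *atg6* (r = 0.998), a subunit of the autophagy phosphatidylinositol 3-kinase complex, and *whi5* (0.994). Those closest to *atg12* were *gmh3* (0.990) and *cox7* (0.987), those closest to *atg3* SPCC757.04 (0.992) and SPCP31B10.02 (0.991), and those closest to *atg10* *sck2* (0.935) and *tip41* (0.927).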

How the data were processed

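RNA sequencing libraries (27 of a nitrogen starvation time course and 4 of a *ppk18* overexpression experiment) were grouped by their labels. The signal values deposited by the authors are reads counted per gene and scaled to each library's DESeq2 size factor, in 1 table per experiment. Per the submitters' processing notes, reads were checked with FastQC 0.11.8, trimmed with Trimmomatic 0.38, aligned with HISAT2 2.1.0 to ASM294v2 and counted with featureCounts (Subread 1.6.3). All values were whole multiples of a step per library (within 0.01 of a read), from which reads were recovered.

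The 8 members, the gene lists and the comparisons were chosen with earlier results of these data known. Genes named are the 8 members, the 3 targeted genes, and the 2 genes most like *atg8*, *atg12*, *atg3* and *atg10* over the 9 group means. Genes that overlap the exons of a member were added after values were seen. Log2(normalized count + 1) of genes with a mean of at least 10 entered limma 3.58.1 under R 4.3.3, using eBayes with a trend, with all 27 libraries of the time course in 1 fit and no replicate block, and Benjamini-Hochberg adjustment over all genes of each comparison. A whole-experiment fit lets 9 groups share 1 estimate of the spread. Alternatives were the same total per library, quantile normalization, a pseudocount of 10, no filter, a minimum mean of 50, no trend, a replicate block, edgeR 4.0.16 and DESeq2 1.42.0 on recovered reads, only the groups compared, and each library left out in turn. The scripts were tested on simulated data. Gene names, exon lengths and overlaps came from the RefSeq annotation of assembly ASM294v3, which held 6852 of the 7001 identifiers. As the files use ASM294v2, no coordinate or sequence is given. Time labels of the overexpression libraries read 0 h, while their protocol gives 20 h without thiamine, which was used. Replicate pairs differed by more than sampling noise (chi-square per gene of 8.50 to 82.2), so each library was counted as its own sample.

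Same-numbered libraries deviated together, with every correlation over 0.1, only for *igo1*∆ against wild type at 1 h (0.17 to 0.26), *igo1*∆ at 4 h against MM (0.10 to 0.18) and *igo1*∆ against *ppk18*∆ *cek1*∆ at 1 h (0.14 to 0.43).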

Additional observations from a re-analysis of the deposited data

Results flagged for a closer look

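The test of whether the change from MM to MM-N differed between a deletion strain and the wild type (limma with Benjamini-Hochberg adjustment) passed for 20 of 32 results over the 8 members, 2 strains and 2 times (62.5%), where 54.6% of the results over all genes passed, so the share of members was near that of all genes. No explanation was weighed for them. From MM to 1 h, the change in *igo1*∆ minus that in wild type was -0.97 (log2) for *atg8*, -0.59 for *atg4*, -0.55 for *atg7*, -0.28 for *atg5* and -0.56 for *atg16*. For *ppk18*∆ *cek1*∆ it was -0.84 for *atg8*, -0.64 for *atg4*, -0.61 for *atg7*, -0.44 for *atg5* and -0.40 for *atg16*. From MM to 4 h, it was -0.46 in *igo1*∆ for *atg8*, 0.43 for *atg3*, -0.46 for *atg7*, -0.51 for *atg12*, -0.94 for *atg10* and -0.38 for *atg16*. For *ppk18*∆ *cek1*∆ at 4 h it was -0.46 for *atg8*, 0.45 for *atg3*, -0.48 for *atg7* and -0.67 for *atg10*. The groups have 2 or 3 libraries, so no single library was tested as an outlier.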

How the results depend on the processing

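Of 176 results (8 members in 22 comparisons), 147 had the same call and direction under every alternative other than leaving out a library, and 145 under all alternatives. Results on the other side of the threshold numbered 19 with the same total per library (2 of them reversed), 14 with quantile normalization, 8 with edgeR, 3 with only the groups compared, 2 with DESeq2, 1 without the trend, 1 with a pseudocount of 10 and 1 with the replicate block, and none with no filter or a minimum mean of 50. The 2 reversed were both of *atg10* from MM to 1 h with the same total per library, at 0.094 in *igo1*∆ and 0.29 in *ppk18*∆ *cek1*∆. That scaling called 8 of 8 members for the change from MM to 4 h in *ppk18*∆ *cek1*∆ minus that in wild type (62.2% of all genes), in place of 4 (61%). The lower members there were 7 with that scaling and 5 with edgeR, in place of 3. All genes called lower there were 2467 of 6038 with that scaling and 1931 of 6036 with edgeR, in place of 1697 of 6036. By direction, the 1 lower member in *igo1*∆ at 1 h and at 4 h against MM and the 1 higher member in *ppk18*∆ *cek1*∆ against wild type at 4 h each became 0 with the same total per library, and 0 lower members in *ppk18*∆ *cek1*∆ at 4 h against MM became 1 with quantile normalization. With the same total, 1324 and 1790 of 6038 genes were lower in *igo1*∆ at 1 h and 4 h against MM. In *ppk18*∆ *cek1*∆ against wild type at 4 h, 1558 were then higher. With quantile normalization 2660 of 6036 genes were lower in *ppk18*∆ *cek1*∆ at 4 h against MM. The other counts of called members, by direction, stayed within 1.5 times under the alternatives run. With quantile normalization the difference between the systems changed, relative to MM, by 1.10 at 1 h and 0.98 at 4 h in wild type, 0.93 and 1.27 in *igo1*∆, and 0.95 and 1.17 in *ppk18*∆ *cek1*∆. Relative to wild type it was then -0.31 at 1 h and 0.15 at 4 h in *igo1*∆ and 0.034 at 4 h in *ppk18*∆ *cek1*∆. The cause was not tested.

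Leaving out 1 library changed the call of 13 results, of which 6 lost and 7 gained a call. Beside those given above, the change from MM to 1 h of *atg10* in *igo1*∆ minus wild type passed at -0.40 to -0.39 without wild type library 3 at 1 h, *igo1*∆ library 3 in MM or *igo1*∆ library 1 at 1 h. The change from MM to 4 h of *atg4* passed at -0.32 to -0.33 in *igo1*∆ without wild type library 2 or *igo1*∆ library 1 in MM, and at -0.30 in *ppk18*∆ *cek1*∆ without wild type library 2 in MM. That of *atg12* in *ppk18*∆ *cek1*∆ passed at -0.46 without wild type library 3 in MM and at -0.51 without its own library 1 in MM. With the replicate block, 7 members in place of 6 were called between 4 h and 1 h in wild type, the added 1 being *atg5* (0.12), and it changed no other call. Same-numbered overexpression and wild type libraries deviated in opposite directions (r = -0.14), and with crossed numbers, an alternative chosen after seeing the data, 3 members were called, as in the other fits. The depth limits *atg12* most, with 55 to 265 reads per library in the time course.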
